A study of Mus musculus with 2 samples.

Results

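Mir132 and Mir212 are neighbouring microRNA genes of mouse chromosome 11, known as a pair that the transcription factor CREB switches on when neurons are active. They were taken from the count tables by gene symbol, as 2 of the 1973 genes listed, and both were detected, which here means 10 counts or more in each of the libraries. The study profiled small RNAs of under 30 bases from total RNA of the midbrain of newborn B6NCrl mice on postnatal day 0. It has 1 group of 2 libraries, labelled as the single midbrains of pup 3 and pup 1, with no treatment, no second tissue and no second age. The labels give both pups the same donor identifier and do not give their sex, so the spread between the libraries is read here as the spread between pups as labelled.

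A microRNA is cut from a hairpin precursor, and either arm of the hairpin can be loaded into the silencing complex, where the seed at the 5′ end (bases 2 to 8) chooses the messenger RNAs to be repressed. In neurons, calcium signals and neurotrophins act through CREB on the shared primary transcript of miR-132 and miR-212. miR-132 is known to promote dendrite and spine growth in rodent neurons by repressing Arhgap32, which encodes a GTPase-activating protein. In cultured dopaminergic neurons, the cell type for which the midbrain is best known, miR-132 represses Nr4a2, a transcription factor of that lineage. miR-212 has been studied in the rat striatum, where it limits cocaine intake.

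The mature sequences are shown because the pair is read through its seeds, written in capitals with the rest in lower case, 5′ to 3′ (RefSeq, GRCm38.p6).
miR-132-3p: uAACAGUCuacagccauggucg
miR-212-3p: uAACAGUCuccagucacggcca
miR-132-5p: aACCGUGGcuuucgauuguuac
miR-212-5p: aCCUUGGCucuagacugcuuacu
The 3p arms were identical over their first 9 bases, the seed included, and matched at 17 of 22 positions. Counted from 1 at the 5′ end, with the miR-132-3p base first and the miR-212-3p base last, they differed by A10C, C14U, U17C, U20C and G22A. Among the 1738 mature microRNAs of the table searched, the seed AACAGUC was found in these 2 arms alone. The 5p arms had different seeds, ACCGUGG in miR-132-5p and CCUUGGC in miR-212-5p, and no other mature sequence of the table had either of them.

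The hairpins are shown because the counts were made per hairpin and not per arm, with both mature arms in capitals.
Mir132 hairpin: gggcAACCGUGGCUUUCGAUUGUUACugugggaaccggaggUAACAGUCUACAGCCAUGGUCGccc
Mir212 hairpin: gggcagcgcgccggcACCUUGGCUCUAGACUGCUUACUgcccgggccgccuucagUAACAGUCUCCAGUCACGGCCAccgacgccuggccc
The Mir132 hairpin has 66 bases and a GC content of 57.6%, and the Mir212 hairpin 91 bases and 69.2%. Their predicted minimum free energies were -37.2 kcal/mol for Mir132 and -41.5 kcal/mol for Mir212. The longest exact run that the hairpins shared with each other was 10 bases. Against the other hairpins of the annotation, on both strands, the longest run was 11 bases for Mir132 and 12 bases for Mir212. Each mature arm was found in its own gene alone among 141767 annotated transcripts. Reads that map to several places were counted under no gene in these tables, and a hairpin with a close copy elsewhere therefore loses reads. No such copy of Mir132 or Mir212 was found in the annotation, and the whole genome was not searched.

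Mir212 (ENSMUSG00000065590.1) lies at chr11:75173388-75173478 and Mir132 at chr11:75173682-75173747, both on the plus strand of GRCm38, the assembly also called mm10. The count tables list Mir132 as ENSMUSG00000065537.1 and the annotation used for positions, GENCODE M21, as ENSMUSG00000065537.2, so the hairpin bounds used for counting may differ from those given here. A gap of 203 bases separates the hairpins. Both lie in the first intron of 1700016P03Rik (ENSMUSG00000085609.1), a noncoding gene of 3 exons that runs from 75172560 to 75177633 on the same strand and is annotated as a host of noncoding RNA. This intron has 1380 bases. No gene on the opposite strand overlaps the hairpins. The nearest gene upstream is Hic1, a transcriptional repressor on the minus strand, 3868 bases from Mir212, and the nearest other microRNA gene of the tables is Mir22, 289968 bases away.

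**Figure D1:**
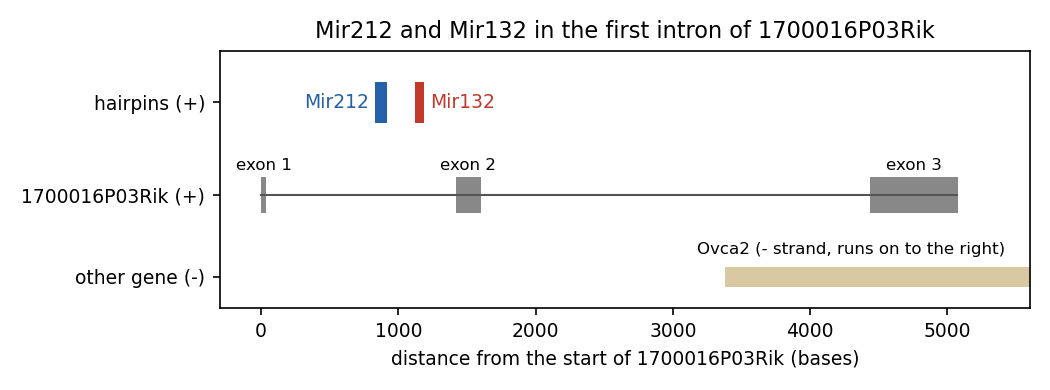
Map of the locus, with the distance in bases from the start of the noncoding gene 1700016P03Rik on the horizontal axis. Mir212 and Mir132 (coloured boxes) lie 203 bases apart in the first intron, before exon 2, and Ovca2 on the minus strand begins to overlap only further along.

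Genes held 3195277 own-strand counts in pup 3, against 2337113 in pup 1. Reads that map to several places took 39.8% of the pup 3 library, against 38.7% of the pup 1 library. Levels are given as CPM, counts on the gene's own strand per 1000000 such counts. Of 13 neuronal marker hairpins in the tables, 10 were detected. The summed level of these markers was 49602 CPM in pup 3, against 44976 CPM in pup 1. Mir124a-1, Mir124a-2, Mir124a-3 and Mir9-2, classical neuronal hairpins, stood at a mean of 11.6 CPM or less. Each has 20 or more bases in a row that recur in a second hairpin, so that their counts may be too low to an unknown degree. Markers of other cells were also present, among them Mir126a of endothelium at 30095 CPM in pup 3, against 36188 CPM in pup 1. The other 8 marker lists ranged in summed level from 47.9 to 7337 CPM in pup 3, against 41.9 to 7465 CPM in pup 1. In a whole midbrain, fewer cells of a type and less RNA per cell cannot be told apart.

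Mir132 was a hairpin of medium to high abundance in the newborn midbrain. It had 7454 counts in pup 3 and 5664 counts in pup 1. These are 2333 CPM in pup 3 (95% interval 2280.2 to 2386) and 2423 CPM in pup 1 (2361 to 2487), with a mean of 2378 ± 64.1 CPM (SD, n = 2). The levels of the pups were close, with an SD of 2.70% of the mean. Intervals here are exact (Clopper-Pearson) and cover counting error only. Mir132 stood at 10.3 times the median CPM of the detected hairpins in each pup. By mean CPM it ranked 77th among the 1973 genes, of which 359 were detected, and it ranked 75th in pup 3 and 74th in pup 1.

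Mir212 was much scarcer in the counts, although it is taken to come from the same primary transcript. It had 400 counts in pup 3 and 287 counts in pup 1. These are 125 CPM in pup 3 (113 to 138) and 123 CPM in pup 1 (109 to 138), with a mean of 124 ± 1.69 CPM (SD, n = 2). The intervals of the pups overlap over most of their width. Mir212 lay below the median detected hairpin, at 0.554 times its CPM in pup 3 and 0.524 times in pup 1. It ranked 211th by mean CPM, 210th in pup 3 and 214th in pup 1, with the same limit as the rank of Mir132. Neither hairpin had a count on its opposite strand in either pup, where the limit that goes with no count (3 counts) is 0.939 CPM in pup 3, against 1.28 CPM in pup 1.

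**Figure D2:**
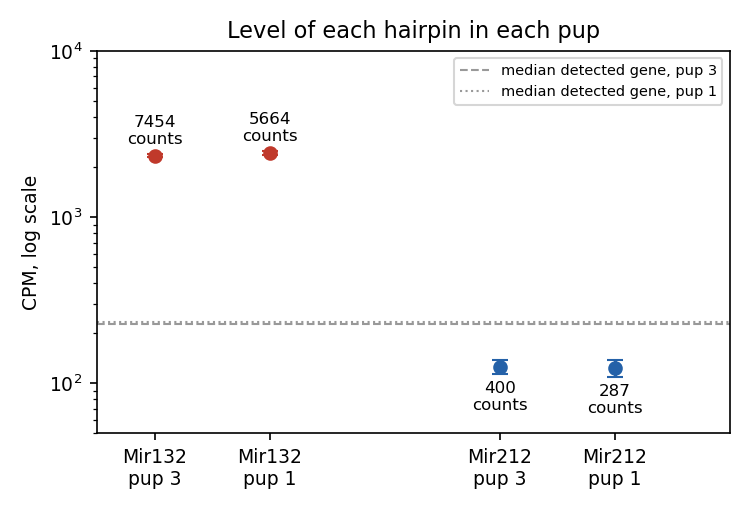
Level of Mir132 and Mir212 in each pup in CPM on a log axis, with exact 95% counting intervals as bars and the number of counts beside each point. Dashed and dotted lines mark the median detected hairpin of pup 3 and pup 1; Mir132 lies above both lines and Mir212 below them in both pups.

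Together the hairpins held 0.246% of the own-strand counts of pup 3 and 0.255% of those of pup 1, or 0.250% ± 0.00624 (SD, n = 2). Mir132 made up nearly all of this sum, 94.9% of the pair in pup 3 (94.4 to 95.4%) and 95.2% in pup 1 (94.6 to 95.7%). The ratio of Mir132 to Mir212 was 18.6 in pup 3 and 19.7 in pup 1, a log2 ratio of 4.26 ± 0.059 (SD, n = 2). The imbalance was seen in both pups and is far larger than the spread between them. A read covers a whole mature microRNA, so counts were not divided by length. Per base of hairpin, Mir132 had 36.0 CPM and Mir212 1.36 CPM, and the ratio was 25.7 in pup 3 and 27.2 in pup 1. The 3p arms share their seed, and the counts give the share of the reads of the pair that came from each hairpin. They do not give how much of it is the 3p arm. Whether reads stand in proportion to molecules for the different sequences was not tested, so the ratio is one of counts.

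No difference between the pups in the balance within the pair was detectable at this depth. The log2 ratio of Mir132 to Mir212 was 4.22 in pup 3, against 4.30 in pup 1, a difference of -0.083. Fisher's exact test on the 4 counts, two-sided, gave p = 0.477, with an odds ratio of 0.944 and a 95% interval of 0.805 to 1.11. The interval covers counting error of these 2 libraries and has no replicate check.

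Other pairs of neighbouring hairpins give the scale for this imbalance. On a single strand and within 10 kb, 79 clusters of exactly 2 hairpins of the tables were found, and both hairpins were detected in 30 of them. Ordered by the mean log2 ratio of the higher to the lower hairpin, Mir132 and Mir212 were the 13th most uneven. The other 29 clusters had a median log2 ratio of 2.55 and ranged from 0.0050 for Mir201 and Mir547 to 9.10 for Mir181a-1 and Mir181b-1. Many of the most uneven clusters hold a hairpin with 20 or more bases in a row that recur in another hairpin, whose counts may be too low to an unknown degree. Of the 14 clusters in which neither hairpin shares such a run, 4 were more uneven than Mir132 and Mir212, and the median log2 ratio of the 13 clusters other than Mir132 and Mir212 was 1.12. These were Mir30d with Mir30b, Mir143 with Mir145a of smooth muscle, Mir34c with Mir34b of multiciliated cells, and Mir130b with Mir301b. The closest in value was Mir130b over Mir301b, at a log2 ratio of 4.41 in pup 3 and 4.19 in pup 1.

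The change of the ratio between the pups, in absolute log2, was 0.083 for Mir132 and Mir212 and had a median of 0.23 over the other 29 clusters. It was the 9th smallest of 30. At the other end, Mir451a and Mir144 of red blood cells had a log2 ratio of 0.090 in pup 3, against 2.10 in pup 1. The changes include counting error, which is larger in clusters of low level, such as Mir201 and Mir547 at means of 4.45 and 4.50 CPM. This order is a description of 2 libraries and was not tested.

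**Figure D3:**
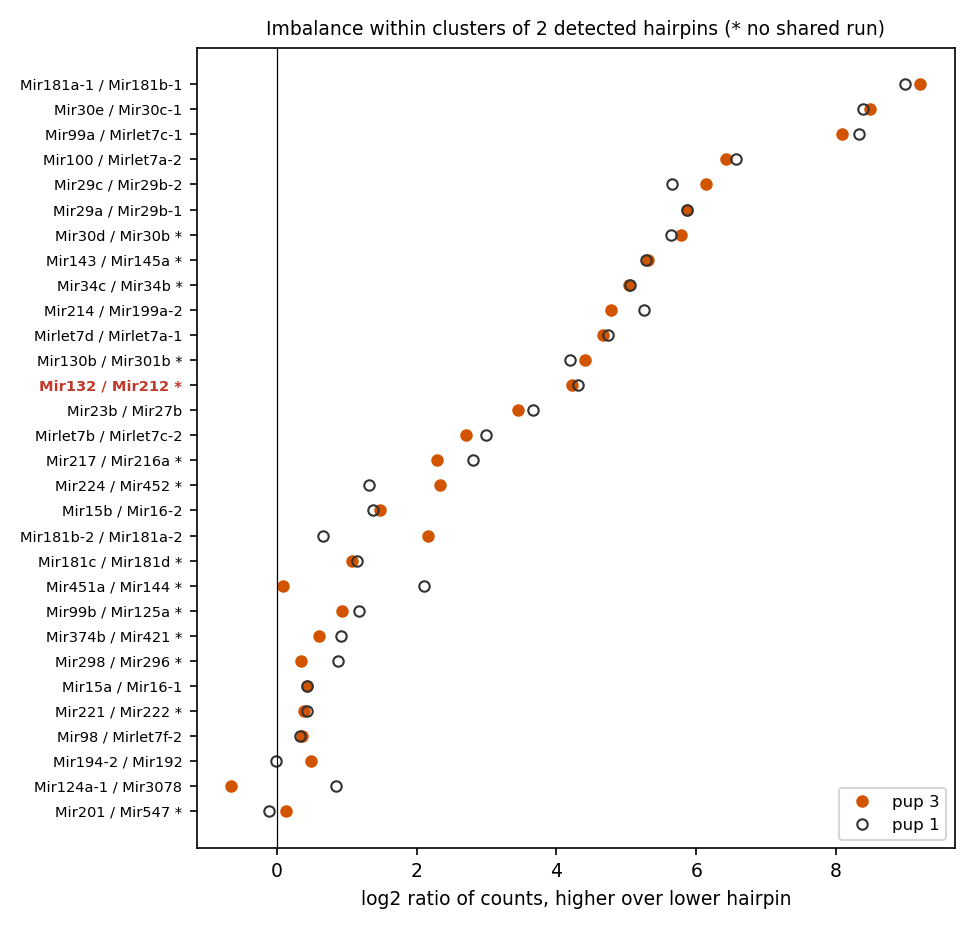
Log2 ratio of the counts of the higher over the lower hairpin for the 30 clusters of exactly 2 detected hairpins, with filled points for pup 3 and open points for pup 1. Asterisks mark clusters whose hairpins hold no run of 20 or more bases that recurs in another hairpin. Mir132 over Mir212 (bold) is the 13th from the top at 4.22 in pup 3 and 4.30 in pup 1.

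Between the pups neither hairpin reached the 2-fold difference used as a call. Ratios of pup 3 to pup 1 were scaled with TMM and tested over the 286 hairpins with a mean count of at least 50, with an exact binomial test of the counts. A gene was called where its ratio was at least 2-fold and its p, adjusted by Benjamini-Hochberg over all 286, was under 0.05. There were 5 called genes (1.75%), and neither Mir132 nor Mir212 was among them. The test compares 2 libraries and says nothing of a condition.

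Mir132 had a log2 ratio of -0.10, or 0.930-fold (95% counting interval 0.899 to 0.963), with an adjusted p of 0.000115 in the exact binomial test. The adjusted p alone was passed by 164 of 286 hairpins (57.3%) at any fold, 86 higher in pup 3 (30.1%) and 78 lower in pup 3 (27.3%). The test and the interval allow for counting error only. Over the tested hairpins the libraries differed by more than that (chi-square 33249, 285 degrees of freedom). With plain library totals and Fisher's exact test the log2 ratio of Mir132 was -0.055 and its adjusted p 0.0535. Mir212 had a log2 ratio of -0.021, or 0.985-fold (0.845 to 1.15), with an adjusted p of 0.910 in the exact binomial test, and its log2 ratio was 0.028 with plain library totals. Of the 286 hairpins, 95 had a smaller absolute log2 ratio than Mir132 and 26 a smaller one than Mir212, and the median absolute log2 ratio over all was 0.15. The epithelial markers, which among the marker lists had the largest fold difference between the pups, summed to 627 CPM in pup 3, against 116 CPM in pup 1, and the red cell markers to 74.2 CPM in pup 3, against 125 CPM in pup 1. Their part in the ratios of Mir132 and Mir212 was not tested.

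**Figure D4:**
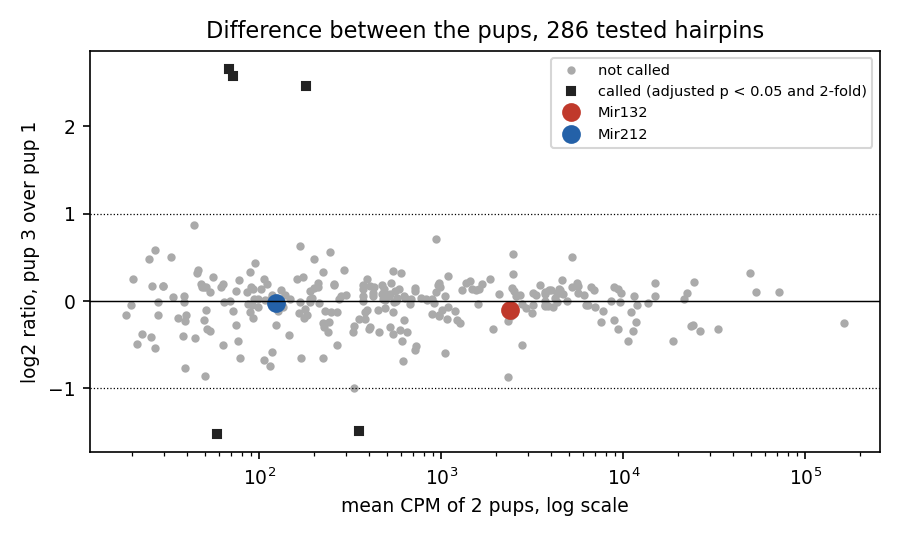
Log2 ratio of pup 3 over pup 1 (TMM scaled) against mean CPM on a log axis for 286 tested hairpins. Black squares are the 5 called hairpins, dotted lines mark 2-fold, and Mir132 (-0.10) and Mir212 (-0.021) lie close to 0.

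In the order of levels, Mir132 had neighbours whose range over the pups overlapped its own. Above it stood Mir101b at 2444 ± 240 CPM, Mir370 at 2415 ± 150 CPM and Mir16-1 at 2381 ± 2.63 CPM. Below it stood Mir423 at 2333 ± 908 CPM, Mir484 at 2313 ± 208 CPM and Mir300 at 2079 ± 129 CPM (SD, n = 2 for each). The range over the pups overlapped that of Mir132 for 5 of these 6, all but Mir300. Over all detected genes 10 hairpins had a range over the pups that overlapped that of Mir132. A range spans the values of the 2 pups and leaves out counting error. Mir101b and Mir16-1 each carry a run of bases found again in another hairpin, and their levels may be too low to an unknown degree.

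Around Mir212 the order was as tight. Mir877 stood above it at 132 ± 11.4 CPM, then Mir3475 at 128 ± 2.81 CPM and Mir301b at 126 ± 3.66 CPM. Below it stood Mir1306 at 123 ± 13.2 CPM, Mir27a at 119 ± 2.22 CPM and Mir192 at 117 ± 30.2 CPM (SD, n = 2 for each). The ranges of Mir3475 and Mir27a did not overlap that of Mir212, and those of the other 4 did. Mir27a carries a run of bases found again in another hairpin. Its level may be too low to an unknown degree, and its place below Mir212 is therefore uncertain. Over all detected genes 7 hairpins had an overlapping range, which is not the number that Mir212 cannot be told from. On chromosome 11, which holds 27 detected hairpins, Mir132 ranked 6th in pup 3 and 7th in pup 1, and Mir212 ranked 14th in both.

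The hairpins most like each in level were found by Euclidean distance in log2(CPM + 1) over the 2 libraries, among 358 other detected hairpins. For Mir132 these were Mir16-1 (distance 0.037), Mir370 (0.059), Mir128-2 (0.10), Mir484 (0.11) and Mir130b (0.18). For Mir212 they were Mir3475 (0.069), Mir301b (0.071), Mir27a (0.080), Mir345 (0.14) and Mir539 (0.15). With 2 libraries of 1 tissue this likeness is almost wholly one of level. Mir16-1, Mir128-2 and Mir27a each carry a run of bases that recurs in another hairpin, and their levels may be too low. Mir130b is the neighbour of Mir301b in its own cluster, so the pair Mir130b and Mir301b lay close to Mir132 and Mir212 in both levels.

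Set against 12 other microRNAs studied as regulated by neuronal activity, Mir132 stood near the top and Mir212 near the bottom. All 12 were detected, with a summed level of 12850.2 CPM in pup 3, against 12165 CPM in pup 1. Mir381, of the imprinted Dlk1-Dio3 cluster that Mef2 activates in neurons, was the only one above Mir132, at 6342 CPM in pup 3, against 5817 CPM in pup 1. Mir134 of the same cluster, which represses Limk1 in dendrites of rat neurons, had 1574 CPM in pup 3, against 1385 CPM in pup 1. Mir188 followed at 1478 CPM in pup 3, against 1241 CPM in pup 1, and Mir204, light-regulated in the retina, at 1178 CPM in pup 3, against 1350 CPM in pup 1. Mir212 was above Mir96 and Mir211 alone. Mir204 is also in the marker list of choroid plexus and multiciliated cells. Mir219a-1 and Mir219a-2 are also in that of the oligodendrocyte lineage. Which cells their counts came from was not tested.

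Between the pups, 11 of these 12 had enough counts for the test, and none was called at 2-fold, against 1.75% of all 286. At an adjusted p under 0.05 in the exact binomial test, whatever the fold, 6 of the 11 were higher and 4 lower in pup 3, where 30.1% of all 286 were higher and 27.3% lower. Their median log2 ratio was 0.076, against 0.016 over all 286 tested hairpins. Mir219a-1 and Mir219a-2 carry a run of bases that recurs elsewhere, and their levels may be too low to an unknown degree.

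**Figure D5:**
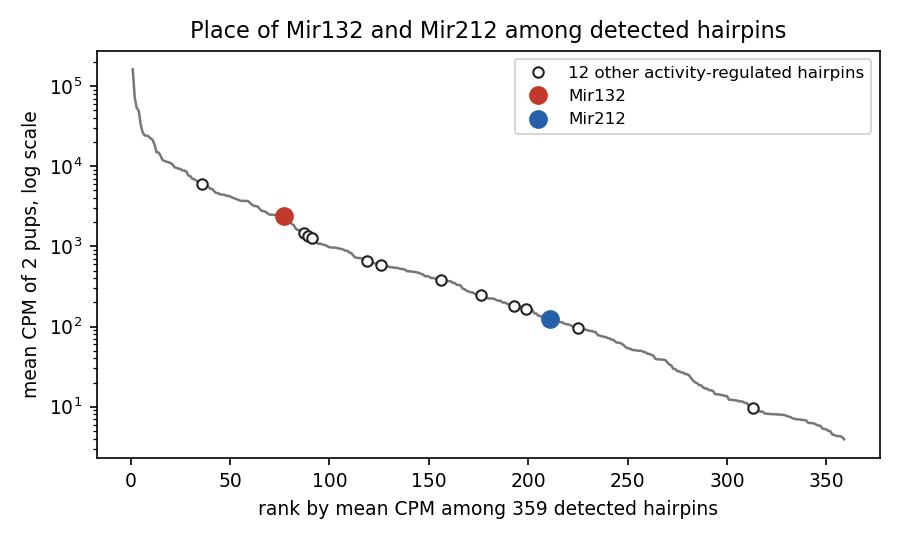
Mean CPM of the 2 pups on a log axis against rank for the 359 detected hairpins. Mir132 (rank 77) and Mir212 (rank 211) are filled, and open circles mark 12 other hairpins studied as regulated by neuronal activity, of which 1 lies above Mir132 and 10 above Mir212.

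Among microRNAs of dendrites and spines, 13 of 14 listed hairpins were found in the tables by symbol and 10 were detected. No gene of the tables carried the symbol Mir9-1 in GENCODE M21. Gene IDs without a symbol there could not be matched, so Mir9-1 may be listed under such an ID. Mir137, a regulator of neuronal differentiation, stood above Mir132 at 26512 CPM in pup 3, against 22082 CPM in pup 1, as did Mir125b-1 at 3046 CPM in pup 3, against 3225 CPM in pup 1, and Mir125b-2 at 2666 CPM in pup 3, against 2474 CPM in pup 1. Mir138-1, whose product limits spine size in rat neurons, stood below it at 1739 CPM in pup 3, against 2091 CPM in pup 1. Of these 13, 9 carry a run of bases that recurs elsewhere, Mir125b-1, Mir125b-2 and Mir138-1 among them, and their counts may be too low. The place below Mir132 is therefore uncertain for Mir138-1. Between the pups none of the 9 tested members was called at 2-fold, against 1.75% of all 286. At an adjusted p under 0.05 in the exact binomial test, whatever the fold, 4 of the 9 were higher and 4 lower in pup 3, where 30.1% of all 286 were higher and 27.3% lower. The median log2 ratio of the 9 was -0.10. Some members, Mir134 and Mir188 among them, are also in the list of activity-regulated microRNAs. Others, Mir137 and Mir138-1 among them, are also neuronal markers, so the lists are not separate results.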

How the data were processed

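Small RNA libraries of 2 newborn midbrains were analysed. Per the deposited descriptions, the authors derived the raw counts per gene from reads aligned to mm10, using GENCODE release M4. For the aligner and counter, a name is not given in the sources used here. Every table holds counts on either strand, the own strand and the opposite strand, and own-strand counts were used. The 4 rows that name no gene held 56.7% of the pup 3 library, against 57.2% of the pup 1 library, and stayed out of library sizes and tests. Symbols and positions came from GENCODE M21 (1894 of 1973 IDs matched), and sequences from RefSeq.

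Scaling used TMM from edgeR 4.0.16, with a prior count of 0.5 for ratios, and DESeq2 1.42.0 size factors as an alternative. With 1 group no comparison of conditions exists. Hairpins with a mean count of at least 50 were given a two-sided exact binomial test in SciPy 1.17.1. Its null share was set by TMM library sizes, with Benjamini-Hochberg adjustment over all tested genes. The calculation was tested on simulated data that held counting error only and used plain library totals. That check does not give the error rate of the test in these libraries. Hairpins were folded with ViennaRNA 2.7.2. Shared runs of at least 20 bases were searched on both strands, leaving out hairpins that overlap in position. A chi-square over the tested genes (33249 with 285 degrees of freedom) showed a larger difference than sampling noise gives, so the counts were kept as 2 libraries; it does not show that the libraries came from separate animals.

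The genes named are the members, the 3 next above and below each in level, the 5 most like each, hairpins sharing a seed, and up to 4 leading members of each list; hairpins of the clusters with 2 members were named after their values were seen, as were Mir22, the Mir124a hairpins, Mir9-1, Mir9-2, Mir126a, Mir96, Mir211, Mir219a-1 and Mir219a-2. Members and lists were chosen with earlier results of these data known.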

Additional observations from a re-analysis of the deposited data

How the results depend on the processing

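The level of each hairpin follows the total it is divided by. Mir132 had a mean of 2299 CPM with either-strand counts, 2842 CPM without the most abundant gene in the total, 1023 CPM over all reads of the tables and 2756 CPM over genes with no shared run. Mir212 had 119.9 CPM, 148 CPM, 53.4 CPM and 144 CPM under the same settings, and the pair together 0.242%, 0.299%, 0.108% and 0.290% of counts. Leaving out a pup in turn gave 2333 to 2423 CPM for Mir132, 122.8 to 125 CPM for Mir212, 0.246% to 0.255% for the pair, and 4.22 to 4.30 for the log2 ratio of Mir132 to Mir212. By mean CPM Mir132 ranked 77th, and 82nd with either-strand counts, 62nd per base of hairpin and 63rd among genes with no shared run. Mir212 ranked 211th, and 221st, 220th and 165th under the same settings. The log2 ratio of Mir132 to Mir212 was 4.72 with counts divided by hairpin length. The log2 ratio of Mir212 between the pups turned to 0.028 with plain library totals, within its counting interval. Called genes were 10 with a mean count of at least 10, 11 with no count filter, 19 at 1.5-fold and 164 at any fold, against 5, and stayed at 5 under the other scalings and with either-strand counts. Neither Mir132 nor Mir212 was called at 2-fold under any of the alternatives run. No paired analysis was possible because the series has 1 group. With 2 libraries, differences between pups rest on counting error alone, and the arms of a hairpin cannot be told apart in these counts.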
